A study of Nasonia vitripennis with 7 samples.

Results

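Siteless DSX peaks are places where the transcription factor Doublesex (DSX) enriched naked wasp DNA over a control protein but where the authors' table lists no DSX site. The peaks described here are the 521 of that kind on the 11 longest scaffolds, out of 2307 peaks in all (22.6%). A scaffold counted as long when its last summit, taken as its extent, lay at 7000000 bases or beyond. Every listed site was credited to the summit closest to it, and a member is a peak that received none. The members were thus chosen by measured values, the positions of summits and of listed matches, so their number and their lack of a site are a description and not a result. On the long scaffolds 512 further peaks held a site. On the 70 shorter scaffolds 912 peaks held none and 362 held one.

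The DNA was genomic DNA from whole bodies of the parasitoid wasp Nasonia vitripennis, genotype AsymCX, in all 7 libraries. Fragments with a target size of 150 bases were enriched with DSX in 4 libraries and with luciferase, the control, in 3. The method, DAP-seq, presents purified DNA without chromatin to a protein made in vitro and fixed on a matrix, so occupancy in living cells was not measured. Of the DSX libraries, 2 are named with an F and 2 with an M, letters that the labels leave unexplained. Libraries were pooled in the deposited lists, so there is no value of a single library, no spread between replicates and no known depth. Every interval below covers counting error only and treats peaks as independent, and peaks are not biological replicates.

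Doublesex is the last switch gene of the sex determination pathway of insects and is spliced differently in females and males. Its DM domain, an intertwined zinc module, binds DNA in the minor groove, usually as a dimer on a short, nearly palindromic core. In Drosophila and other insects such sites lie near genes with sex-specific expression. The sequences most often found at the other peaks of the same 11 scaffolds show what the members lack. The 3 commonest best matches are given with the core in capitals, 5′ to 3′ on the listed strand, each at the strongest peak that held it, with positions as the authors' table gives them. No genome build is given in the sources used here.
NW_022279598.1:11282046-11282057 (+): atACATTGTttc
NW_022279649.1:5110032-5110043 (+): atACAATGTttc
NW_022279606.1:8741028-8741039 (-): atACATTGTata
Their centres lay 2, 355 and 3 bases from the summits, so the second example lies well away from its summit. They were the best match of 30, 27 and 26 of the 512 peaks with a site. The core ACAATGT or its reverse complement ACATTGT stood in the best match of 436 of these peaks (85.2%, exact 95% interval 81.8 to 88.1). A siteless peak is one without any match of this kind in the table, whose weakest entry has a match p of 9.98e-05. It may still hold a weaker likeness, since the bases under the members were not read here.

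A member's distance to the nearest listed site follows mainly from its distance to the nearest peak with a site. Sites on the long scaffolds lay a median of 9 bases from the summit they were given to, and the farthest lay 358 bases away. No match farther from a summit is listed there, so the distances below do not cover unlisted sequence between peaks. The member nearest to any listed site lay 1276 bases from it, and the median distance was 92.5 kb. The 5 members closest to a site therefore show the edge of the definition, and in each case the site belonged to a neighbouring summit. These neighbouring sites were:
NW_022279642.1:9592900-9592911 (-): ctACATTGTttg
NW_022279606.1:8741028-8741039 (-): atACATTGTata
NW_022279650.1:6571139-6571150 (+): atACTTTGTtgc
NW_022279592.1:12170516-12170527 (-): aaACAATGTatc
NW_022279642.1:19928936-19928947 (+): atACATTGTttt
The first lay 58 bases from its own summit (strength 10.4) and 1276 bases from the member at 9594182 (strength 8.22). The second, one of the commonest sequences above, lay 3 bases from a summit with a strength of 19.5 and 1533 bases from the member at 8739501 (strength 7.25). The third, with the core ACTTTGT, lay 1643 bases from the member at 6572787 (strength 3.81), whose neighbour had a strength of 3.74. The last pair lay 1797 and 2144 bases from the members at 12168725 (strength 3.70) and 19926797 (strength 3.01). In 4 of the 5 cases the summit with the site was the stronger of the pair.

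The members were mostly weak peaks. Strength below is the value that the authors listed for each peak, a −log10 of q or of p (which of them is not stated) for DSX over luciferase. The members ran from 2.04 to 47.1 in strength, with a median of 3.50 (exact 95% interval of the median 3.25 to 3.66) and quartiles of 2.59 and 4.81. Peaks with a site on the same scaffolds ran from 2.04 to 169, with a median of 7.38 (6.79 to 7.74) and quartiles of 4.93 and 11.6. The distributions overlapped: 61 members (11.7%) were stronger than the median peak with a site, and 385 of the 512 peaks with a site (75.2%) were stronger than the upper quartile of the members. No test was made of this difference, since the list gives peaks and not replicates. The motif behind the sites came from the pooled peaks themselves, so sites and peaks were not defined independently.

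A strength over 10 was reached by 35 members (6.72%, 4.72 to 9.22), against 26.4% of all 2307 peaks and 33.0% (28.9 to 37.3) of the peaks with a site on the same scaffolds. At the other end, 175 members (33.6%, 29.5 to 37.8) had a strength under 3, against 17.1% of all peaks and 5.66% (3.83 to 8.03) of the peaks with a site. Siteless peaks on the shorter scaffolds were stronger, with a median of 6.12 (5.59 to 6.44), a range from 2.03 to 77.7, and 28.1% (25.2 to 31.1) over 10. The members' median thus lay below that of siteless peaks elsewhere. No test was made of this, since the rule itself separates these groups by extent and peaks are not replicates.

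**Figure D1:**
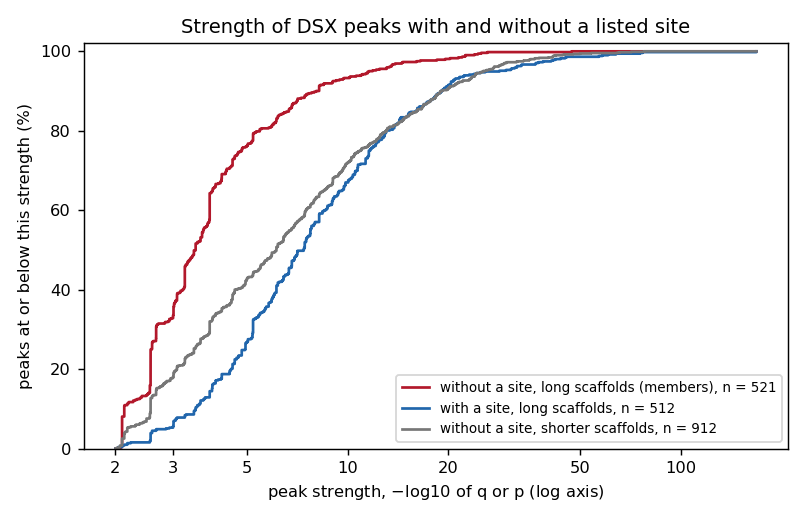
Cumulative percent of peaks (vertical axis) at or below each strength (horizontal log axis, −log10 of q or p) for the 521 members, the 512 peaks with a site on the same 11 scaffolds and the 912 siteless peaks on shorter scaffolds. The members' curve lies to the left, with a median of 3.50 against 7.38 and 6.12.

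The weak end of the list was shared by both classes of scaffold, and the strong end was not. Among the weakest peaks of the long scaffolds, with strengths from 2 to 3, 175 of 204 were siteless (85.8%, 80.2 to 90.3), and on shorter scaffolds 165 of 191 were (86.4%, 80.7 to 90.9). From 4 to 5 the shares were 50.5% (40.6 to 60.3) and 72.6% (63.6 to 80.5). From 5 to 7.5 they were 33.7% (27.1 to 40.8) and 68.0% (61.5 to 73.9). At 15 and over, 14 of 99 peaks on long scaffolds were siteless (14.1%, 7.95 to 22.6), against 152 of 225 on shorter ones (67.6%, 61.0 to 73.6). On the long scaffolds the share was thus lower in each stronger class, and on the shorter scaffolds it stayed between 57.5% and 72.6% from a strength of 4 upward.

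**Figure D2:**
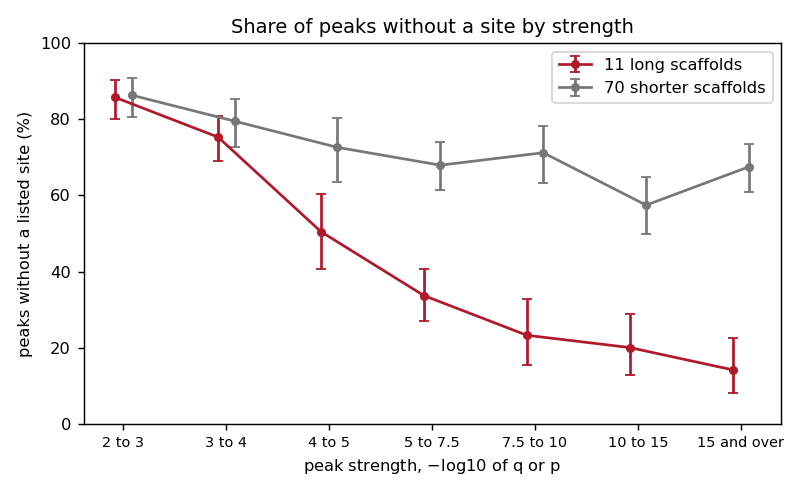
Percent of peaks without a listed site (vertical axis) by class of strength (horizontal axis), for the 11 long and the 70 shorter scaffolds. Bars are exact 95% binomial intervals, which overlap in the 2 weakest classes and are apart from 4 upward. They cover counting error only and are not a test between the classes of scaffold. The share runs from 85.8% to 14.1% on the long scaffolds.

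Per Mb of extent the long and the shorter scaffolds held different numbers of siteless peaks and similar numbers of peaks with a site. The long scaffolds, with a summed extent of 153.8 Mb, held 3.39 siteless peaks and 3.33 peaks with a site per Mb. The shorter ones, with 111.2 Mb, held 8.20 siteless peaks and 3.26 with a site. In the weakest class the densities of siteless peaks were 1.14 and 1.48 per Mb, and at a strength of 15 and over they were 0.0910 and 1.37 per Mb. Peaks with a site at 15 and over had densities of 0.553 and 0.657 per Mb. Scaffold lengths were not used here and the extent stops at the last summit, which shortens the extent most on scaffolds with few peaks; over the 23 shorter scaffolds that reached 2 Mb, the densities were 7.99 and 3.41 per Mb. The rule divides scaffolds by extent and peaks by sites, so these densities are given with no test.

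The threshold of 7 Mb did not fall in a wide gap, as the extents around it were 8.55, 7.18, 6.49 and 5.65 Mb. The shortest scaffold inside the threshold, NW_022279603.1 with an extent of 7.18 Mb, held 28 siteless peaks among 49 (57.1%, 3.90 per Mb, median strength 3.86). The next one outside it, NW_022279588.1 with 6.49 Mb, held 67 among 83 (80.7%, 10.3 per Mb, median strength 6.41). Among the 27 shorter scaffolds with at least 20 peaks, 24 had a higher siteless share than any long scaffold, 26 a higher siteless density, and 24 a higher median strength of siteless peaks. NW_022279623.1, with an extent of 4.30 Mb, was within or below the long scaffolds in all 3 measures, at 33.3%, 1.63 per Mb and a median of 3.08. The minimum of 20 peaks favours dense scaffolds among the short ones.

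How the members divided among the 11 long scaffolds was not fixed by the rule, which uses the extent only as a threshold. Siteless peaks numbered from 28 on NW_022279603.1 to 92 on NW_022279642.1, the longest, and their density ran from 2.32 to 4.09 per Mb. Against a division by extent, 0 of the 11 scaffolds (0.0%) departed in a two-sided exact binomial test with Benjamini-Hochberg adjustment, and 1 had an unadjusted p under 0.05: NW_022279650.1, with 33 members where 48.1 were expected (exact binomial p = 0.0228, adjusted p = 0.251). The share of peaks without a site ran from 41.8% on NW_022279650.1 to 58.6% on NW_022279634.1. Against the share over all 11, 50.4% (47.3 to 53.5), again 0 (0.0%) departed in the same test, and 0 had an unadjusted p under 0.05 (lowest adjusted exact binomial p = 0.734). The absence of calls does not show that the scaffolds were alike. Each extent was set by the last summit, which was a member on 6 of the 11 scaffolds, so expectation and count were not fully separate. Both tests treat the peaks of 1 pooled list as independent.

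The median strength of members was below that of the peaks with a site on every one of these scaffolds. The members' median lay between 3.00 on NW_022279649.1 and 3.86 on NW_022279603.1 and NW_022279650.1, and that of peaks with a site between 6.11 and 8.42, so the 2 ranges of medians were apart. The difference was smallest on NW_022279650.1 (2.25) and largest on NW_022279598.1 (4.85).

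**Figure D3:**
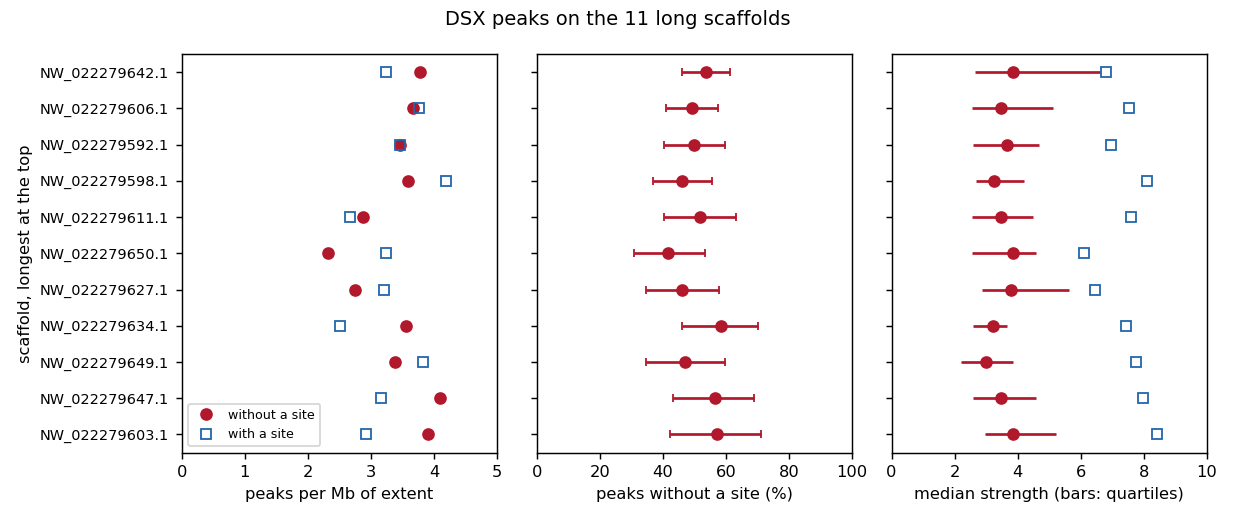
The 11 long scaffolds, longest at the top, by peaks per Mb of extent (left), percent of peaks without a site with exact 95% binomial intervals (middle) and median strength, −log10 of q or p, with the quartiles of the siteless peaks as bars (right). Filled circles are siteless peaks and open squares peaks with a site; the siteless median is the lower one in all 11 rows.

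Of the members, 101 were at or above the median strength of the whole list, and in the exact binomial test against extent 2 of the 11 scaffolds (18.2%) departed, 1 of them close to the threshold. NW_022279642.1 held 28 where 16.0 were expected (adjusted p = 0.0263, exact binomial) and NW_022279650.1 held 2 where 9.33 were expected (adjusted p = 0.0472, exact binomial). The share of siteless peaks in this stronger part called 0 scaffolds (lowest adjusted p = 0.0981, exact binomial; 1 with an unadjusted p under 0.05, NW_022279642.1 at 37.3%). The test treats members as independent, and the p-values may be too small where members lie together. Over whole windows of 1 Mb the number of all members had a mean of 3.28 and a larger variance, 4.95. Whether stronger members divide differently from the others was not tested.

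Strong members gathered towards the far end of the 2 longest scaffolds. On NW_022279642.1 and NW_022279606.1, the 2 longest, 40 of 167 members (24.0%) lay in the last 10% of the extent, and these had a median strength of 5.33, against 3.25 in the rest. A strength over 10 was reached by 12 of those 40 (30.0%) and by 7 of the other 127 (5.51%). By scaffold, the last 10% held 7 such members among 19 on NW_022279642.1 and 5 among 21 on NW_022279606.1. On the other 9 long scaffolds 37 of 354 members (10.5%) lay in the last 10%, and 0 of the 37 had a strength over 10, against 16 of the other 317 (5.05%). The 2 scaffolds were singled out after their values were seen, and no test was made. Of the 156 peaks with a site on those 2 scaffolds, 12.2% lay in that last 10%, and of the 356 on the other 9 scaffolds 13.8% did. On NW_022279642.1 the members had a median strength of 6.86 in the last 10% and 3.50 in the rest, and the peaks with a site 11.1 (n = 10) and 6.80. On NW_022279606.1 the members had 4.02 and 3.06, while the peaks with a site had 6.42 (n = 9) and 7.53, so the order of the latter was not the same on both scaffolds. Over the 2 scaffolds together the peaks with a site had a median of 10.7 in the last 10% and 7.07 in the rest. On each of them a larger share of the peaks with a site was over 10 in the last 10% than in the rest, though only 10 and 9 such peaks lay there. Strong peaks at that end were thus not particular to members.

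**Figure D4:**
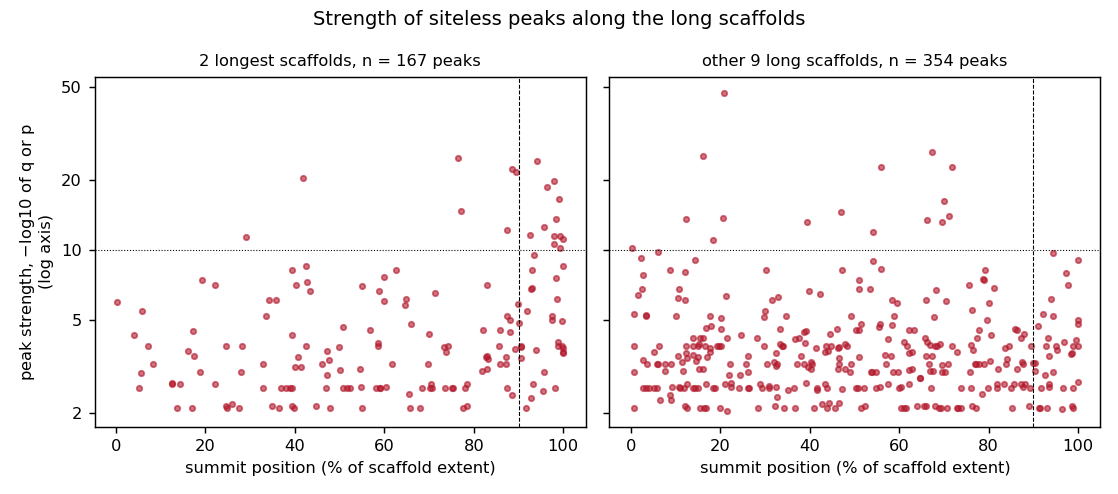
Strength of each siteless peak (vertical log axis, −log10 of q or p) by the position of its summit in percent of the scaffold's extent (horizontal axis), for the 2 longest scaffolds (left, 167 peaks) and the other 9 (right, 354 peaks). Right of the dashed line at 90%, 12 of 40 peaks lie above the dotted line at a strength of 10 in the left panel and 0 of 37 in the right.

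Over all 11 scaffolds the members were otherwise spread along the whole extent. Cut into 10 equal parts, each of the first 9 held 38 to 60 members, with median strengths from 3.00 to 3.50, and the last held 77, with a median of 3.86. Since the last summit sets the extent, the last part always holds that peak. Without the 6 members that were the last summit of their scaffold the last part held 71. Peaks with a site were also most numerous in the last part, at 68 (63 without last summits) against 30 to 61 in each of the others. The siteless share was 41.8% (31.5 to 52.6) in the first part, 64.3% (53.1 to 74.4) from 60% to 70% of the extent and 53.1% (44.6 to 61.4) in the last.

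The 15 strongest members came from 6 of the 11 scaffolds. The first of them, at 3315443 of NW_022279592.1, had a strength of 47.1. It ranked 24 in the whole list, and 7 peaks with a site on long scaffolds were stronger. Its nearest neighbour, another siteless summit with a strength of 13.7, lay 24494 bases away, and the nearest listed site lay 53462 bases away. The next was far weaker, at 9943565 of NW_022279598.1 (strength 26.3), and 2 more of the 15 stood on that scaffold, at 8274646 (strength 22.6) and 10623444 (strength 22.5).

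NW_022279642.1 held 6 of the 15, with summits at 18619252 (strength 24.6), 21577434 (strength 22.1), 21770009 (strength 21.5), 10207637 (strength 20.3), 23465115 (strength 18.5) and 24162375 (strength 16.5). On NW_022279606.1 they stood at 19239730 (strength 24.0), 20032077 (strength 19.6) and 15793124 (strength 14.6). The remaining members of the 15 were at 1381784 of NW_022279647.1 (strength 25.2) and 9965790 of NW_022279650.1 (strength 16.1). Of the 15, 4 lay in the last 10% of their scaffold, all on the 2 longest. A siteless peak was the nearest summit of 12 of the 15, and 14 had no listed site within 50 kb. The exception, at 10207637 of NW_022279642.1, had a summit with a site and a strength of 7.96 at a distance of 3781 bases. Among all members 55.1% had a siteless nearest summit, and the median distance to a listed site was 92.5 kb. Most members thus also had no listed site within 50 kb. Since sites are listed only near summits, these distances do not describe the sequence between peaks. Genes at these positions were not looked up, because none of the scaffold names occurs in the gene table used here.

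Close neighbours were rare among members and among the peaks with a site on the same scaffolds. Another summit lay within 5 kb of 35 members (6.72%, 4.72 to 9.22), against 12.3% of all peaks, 8.98% (6.65 to 11.8) of the peaks with a site on the same scaffolds and 15.02% (12.8 to 17.5) of siteless peaks on the denser, shorter scaffolds. Against the peaks with a site the order depended on the distance: within 1 kb the shares were 1.54% (0.665 to 3.00) of members and 0.781% (0.213 to 1.99) of peaks with a site, and within 10 kb 18.8% (15.5 to 22.4) and 16.8% (13.7 to 20.3), and the intervals overlapped at all 3 distances. The median distance to the nearest summit was 42.3 kb for members and 41.8 kb for the peaks with a site. The nearest summit was itself siteless for 287 members (55.1%, 50.7 to 59.4) and for 234 peaks with a site (45.7%, 41.3 to 50.1), while 50.4% of all peaks on these scaffolds were siteless. These shares count a pair of mutual neighbours from both sides.

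The 5 closest pairs of members were all of weak summits. The first stood at 3738245 and 3738508 of NW_022279634.1, 263 bases apart, with strengths of 2.59 and 3.19. Further pairs stood 519 bases apart on NW_022279642.1 (14274295 and 14274814, strengths 3.97 and 3.86), 675 bases apart on NW_022279606.1 (18505019 and 18505694, strengths 3.44 and 3.86) and 988 bases apart at the last 2 summits of the same scaffold (20447930 and 20448918, strengths 3.62 and 3.81). The fifth pair, 1124 bases apart at 1600187 and 1601311 of NW_022279634.1, had strengths of 2.55 and 3.54. All 10 of these summits were weaker than the median peak of the list, at 5.73, as were 420 of all 521 members (80.6%). Of 284 neighbouring pairs in which both peaks were members, 10 were within 5 kb, and in 8 of these both summits were below that median. The exceptions were both on NW_022279606.1, at 20013387 and 20014961 (1574 bases apart, strengths 11.5 and 10.6) and at 20438943 and 20440822 (strengths 8.49 and 3.66); they were named after their values were seen.

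In windows of 1 Mb the members were scattered, with a few dense places. Of 160 windows, 12 held no member, the median was 3 and the highest number was 12, reached 3 times. The window from 20000001 of NW_022279606.1, which ends at the last summit at 20448918, held 12 members and 1 peak with a site. Its members had a median strength of 5.55, a range from 3.62 to 19.6, and 4 were over 10. The windows from 1000001 to 2000000 of NW_022279647.1 and from 6000001 to 7000000 of NW_022279649.1 each held 12 members and 6 peaks with a site. Their members had median strengths of 4.02 (range 2.10 to 25.2) and 3.00 (2.10 to 13.1), so that dense windows differed in strength.

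Unbroken stretches of siteless peaks reached 9 summits, in 4 places. The stretch from 23740959 to 24370343 of NW_022279642.1, up to the last summit, spanned 629.4 kb with a median strength of 7.53 and a maximum of 16.5. Another on that scaffold, from 21305187 to 22073423, spanned 768.2 kb with a median of 5.20 and a maximum of 22.1. The other two had weaker peaks, from 3483981 to 5641521 of NW_022279606.1 (median 2.99, maximum 7.42) and from 8353235 to 9574892 of NW_022279650.1 (median 3.50, maximum 5.20). By comparison, the longest unbroken stretch of peaks with a site on these scaffolds had 12 summits.

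Many members shared exactly the same listed strength. The 521 members took 225 different values, and the 4 commonest values held 143 of them (27.4%). Among the 512 peaks with a site on the same scaffolds the 4 commonest values held 43 (8.40%). Among siteless peaks on shorter scaffolds the 4 commonest held 78 of 912 (8.55%). Over the whole list of 2307 peaks, with 1024 different values, the 4 commonest held 254. The members were weaker than each of these sets, with a median of 3.50 against 7.38, 6.12 and 5.73. The shares were thus not compared at equal strength. The value 2.56 was that of 41 members, 2.10 of 40, 3.86 of 35 and 3.25 of 27 (2.56334, 2.10442, 3.8557 and 3.24678 in full). Of all peaks on the long scaffolds with exactly these values, members made up 85.4% (72.2 to 93.9), 95.2% (83.8 to 99.4) and 81.4% (66.6 to 91.6) for the first 3, and 27 of 30 peaks for the last. Among all peaks of these strengths on the long scaffolds the siteless share was 85.8% from 2 to 3 and 75.3% from 3 to 4, and the intervals of the 4 values include the share of their class (73.5 to 97.9 for the last). The value 5.20 (5.20396 in full) was more often that of a peak with a site, with 9 members among 25 peaks (36.0%, 18.0 to 57.5). Peaks of one value cannot be ranked among themselves, and the read pileups and local backgrounds behind the values were not used here.

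**Figure D5:**
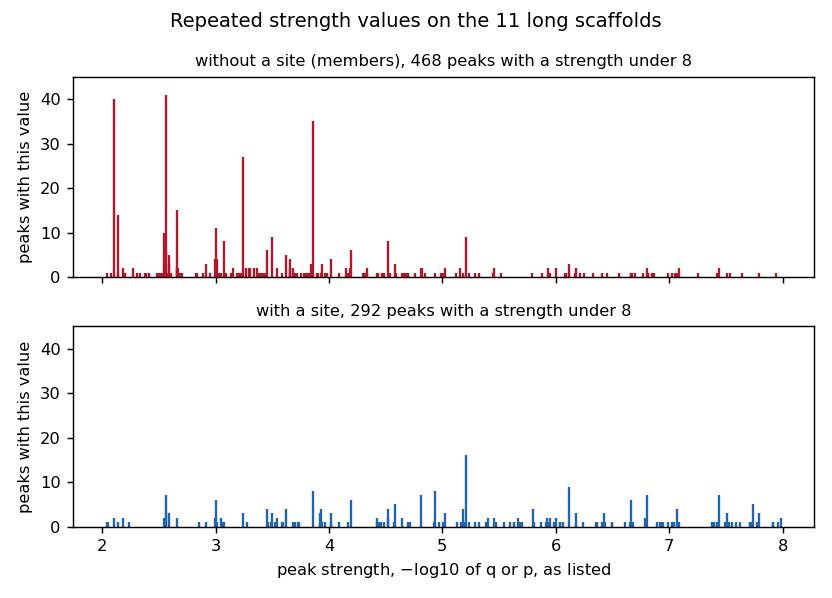
Number of peaks on the 11 long scaffolds (vertical axis) at each listed strength under 8 (horizontal axis, −log10 of q or p), for peaks without a site (top) and with one (bottom). The tallest lines in the top panel are 41, 40, 35 and 27 peaks at 2.56, 2.10, 3.86 and 3.25; the tallest in the bottom panel is 16 peaks at 5.20.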

How the data were processed

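The deposited files were 1 pooled list of peaks and 1 table of motif matches. Per the submitters' processing notes, the tools included MACS2 2.2.5, cutadapt, Bowtie2 2.3.5.1 and bedtools 2.28.0; settings are not given in the sources used here. Each deposited peak has a 1-base summit and a −log10 value, of p or of q, that the authors obtained for DSX over luciferase. Per the file headers, 1485 matches of 12 bases come with a score and a p-value, and its footer names FIMO 5.1.0 and a MEME motif from the pooled peaks.

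The centre of a match was its start plus 5 bases, or its stop minus 5 on the minus strand. Shares have exact (Clopper-Pearson) and medians exact order-statistic 95% intervals. Scaffolds were compared by exact binomial tests, two-sided, adjusted by Benjamini-Hochberg over the 11 long scaffolds. This step was tested on simulated data with independent members only, which does not cover members that lie together. The named peaks are the 15 strongest members, the 5 closest to a site, the 5 closest pairs and the 3 densest windows. Members, lists and tests were chosen with earlier results of these data known, and the strength classes, repeated values, stretches and the last 10% of scaffolds after these values were seen. Alternatives changed the sites counted, the peaks kept, the extent and the joining of summits. No genome of this build was used. Values were computed with scipy 1.17.1, pandas 2.3.3 and numpy 2.4.6 in python 3.11.15, and plots drawn with matplotlib 3.10.9.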

Additional observations from a re-analysis of the deposited data

How the results depend on the processing

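Of 84 values recomputed under an alternative, 61 stayed within the interval or within 1.5 times the count of the value reported. The number that turned in direction was 0, but most were single shares, counts or medians, which have no direction. Many left out 1 scaffold at a time, and siteless peaks were entered both as a number and as a share, so the 84 are not independent. The siteless share of peaks on long scaffolds was 63.8% when only sites within 25 bases of the summit counted, 79.0% (816 peaks) with the summit base inside the site, 65.8% with the matches at or above the median score, 53.8% with scaffolds of 5 Mb or more, 23.5% (101 peaks) in the stronger part of the list and 24.8% (124 peaks) from a strength of 5. These follow from the changed definitions. The median strengths of siteless peaks and of peaks with a site were 3.83 and 8.22 with sites within 25 bases, 4.02 and 9.62 with the summit inside the site, 3.86 and 8.50 with the better matches, and 4.53 and 8.46 with 1 peak per value; with 5 Mb the first was 3.70. Without each long scaffold in turn they ran from 3.42 to 3.52 and from 7.07 to 7.44, and the members over a strength of 10 from 5.36% to 7.29%. Scaffolds called against extent numbered 2 in the stronger part of the list. Neighbours within 1 kb were found for 1.54% of members and within 10 kb for 18.8%. Without the 2 longest scaffolds 10.5% of members lay in the last 10% of the extent. Siteless peaks per Mb were 2.42 times as dense on shorter as on long scaffolds, and 6.58 times in the stronger part of the list. No paired analysis was possible because the lists pool the libraries; no library could be left out for that reason. Depth is unknown, so how many weak peaks deeper libraries would add or lose is unknown.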
